A study of Equus asinus with 12 samples.

Results

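A set of 7 genes that shape the electrical behaviour of the muscle fibre membrane was followed through 12 RNA-seq libraries of muscle from Dezhou donkeys (Equus asinus). They encode the subunits KCNJ11 and ABCC9 of the ATP-sensitive potassium (KATP) channel, the inward rectifier KCNJ2, the chloride channel CLCN1, the sodium channel SCN4A, and the subunits CACNA1S and CACNB1 of the voltage-gated calcium channel. The members were given by gene symbol, and where several loci carried a symbol the locus with the highest mean level was used. All 7 were found among the 27084 loci of the table, and all 7 lie among the 12408 loci that reached an FPKM of 1 in 3 or more libraries and could be tested. FPKM counts sequenced fragments per kilobase of transcript, scaled to library depth, so levels can be compared between genes.

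The study sampled the longissimus dorsi, a back muscle that runs along the spine, and the gluteal muscle of the hip in 2 strains, Sanfen and Wutou. This gave 3 libraries in each of 4 groups (Sanfen longissimus, Sanfen gluteal, Wutou longissimus and Wutou gluteal), and the labels give an age of 24 months and no treatment for any group. The study's text names 6 donkeys, but no label ties a library to an animal, so the p-values measure only the spread between libraries, which may be partly technical. Values of the 3 libraries of a group are given in the order of their replicate numbers.

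As background, an action potential in a muscle fibre begins when the sodium channel opens, spreads into the transverse tubules, and is sensed there by the calcium channel complex, which triggers calcium release from the sarcoplasmic reticulum. Chloride and inward rectifier potassium channels hold the fibre near its resting voltage and end the discharge. KATP channels open when ATP falls and ADP rises, and they quiet the membrane of a fibre under metabolic strain. Inherited defects of some of these genes in people and animals cause myotonias and periodic paralyses.

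Libraries held 214564 to 319767 FPKM in total. Without read numbers, counting error could not be estimated. The libraries carried skeletal muscle transcripts: the 11 found genes of a 14-gene muscle list summed to 33992 to 45122 FPKM per library, while the endothelial list summed to 48.4 to 86.8. Libraries differed in fibre type markers. The fast fibre list (11 of 13 genes found) summed to 7599 FPKM in Sanfen longissimus replicate 2 and 10534 in Sanfen gluteal replicate 1, against 14127 to 22049 in the rest. The slow fibre list (11 of 12 found) summed to 5728 and 7887 in these libraries and to 2559 to 4756 in the rest. The genes not found were the myosin heavy chains MYH1 and MYH4 of the fast list and MYH7 of the slow list, so these sums leave them out. The TNNT3 locus in the fast sum, 1 of 3 with this symbol, read only 0 to 5.43 FPKM. No list of markers had a found gene at 0 in all libraries. In whole tissue, fewer cells of a type and less RNA per cell cannot be told apart.

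CACNA1S stood highest of the channel genes, with a median of 57.7 FPKM over the 12 libraries. KCNJ11 followed at a median of 45.0, then SCN4A at 14.3, ABCC9 at 13.5, CACNB1 at 8.61, CLCN1 at 3.12 and KCNJ2 at 1.32. The ranges of neighbours in this order overlapped in each case. Within single libraries CACNA1S exceeded KCNJ11 in 11 of 12, and KCNJ11 exceeded SCN4A in 8. SCN4A and ABCC9 could not be ordered, since each was the higher one in 6 of 12 libraries. ABCC9 exceeded CACNB1, CACNB1 exceeded CLCN1 and CLCN1 exceeded KCNJ2 in 12 of 12 libraries.

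**Figure D1:**
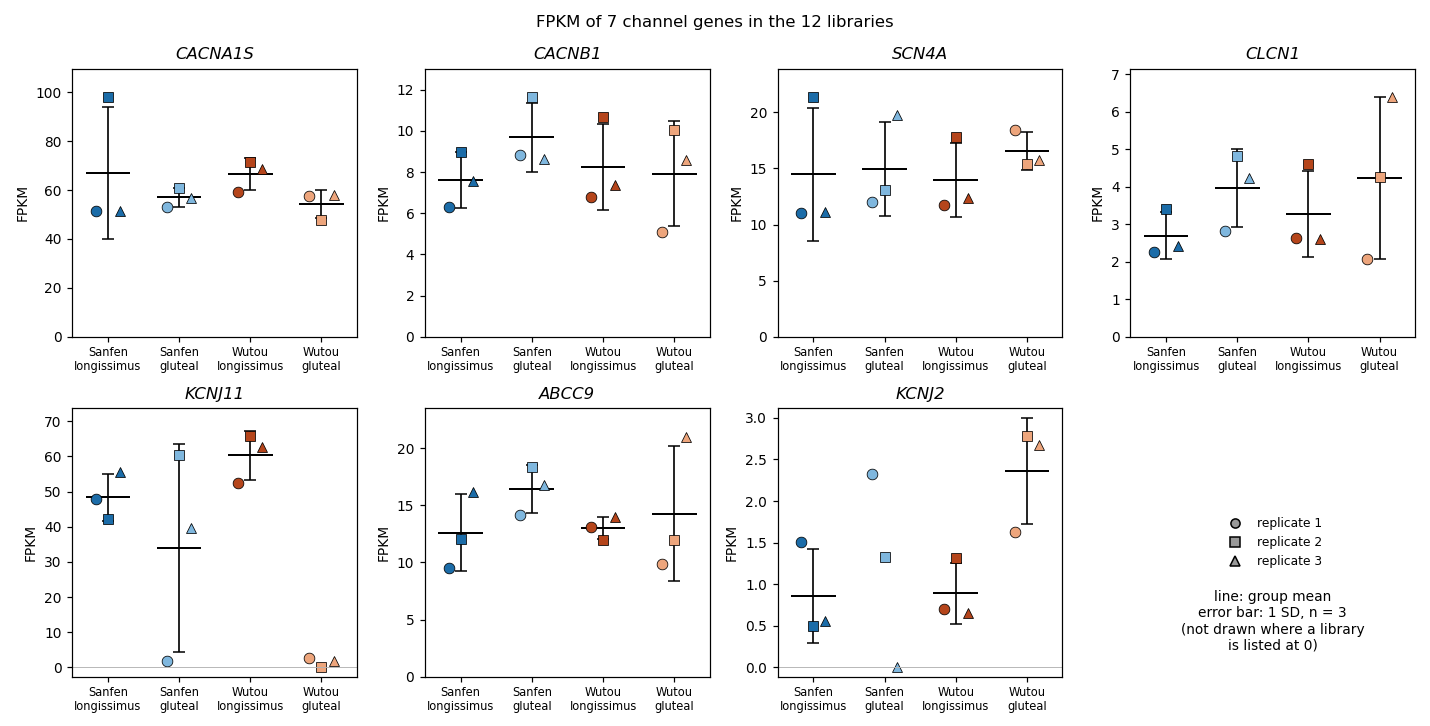
FPKM (vertical axes, linear, each with its own range) of the 7 channel genes in the 4 groups (horizontal axes), with 1 symbol per library, a line at the group mean and bars of 1 SD (n = 3), not drawn for the groups of KCNJ11 and KCNJ2 that hold a library listed at 0. KCNJ11 lies between 39.8 and 65.8 in 8 libraries and between 0 and 2.70 in the other 4, while the remaining genes show a single broad level.

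KCNJ11 (locus MSTRG.7069), which forms the Kir6.2 pore of the KATP channel, was listed either high or near 0 and not along a range. The longissimus libraries of Sanfen stood at 47.8, 42.1 and 55.4 FPKM and those of Wutou at 52.5, 65.8 and 62.7. The gluteal libraries of Sanfen stood at 1.83, 60.3 and 39.8, and those of Wutou were listed at 2.70, 0 and 1.75. All 6 longissimus libraries were therefore high, the 3 Wutou gluteal libraries were low, and the Sanfen gluteal libraries were split, with replicate 1 low and the other 2 high. No library lay between 2.70 and 39.8 FPKM. An FPKM at or near 0 can be a failed estimate of the transcript as well as low expression, and this table alone does not tell them apart, which holds for every KCNJ11 difference given here. The SD of KCNJ11 over the libraries, 2.28 on the log2(FPKM + 1) scale, was at the 99.9th percentile of all tested loci.

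In the Wutou strain the gluteal and longissimus values of KCNJ11 did not overlap, as was the case for 12.9% of all tested loci. The log2 difference between gluteal and longissimus muscle was -4.82 (SE 0.90, 95% confidence interval -6.79 to -2.84). It did not pass the limma test across all loci (adjusted p = 0.617). In Sanfen the groups overlapped and the difference was -1.36 (SE 0.90, adjusted p = 1). Averaged over the strains it was -3.09 (SE 0.64, adjusted p = 0.413 by limma). Between strains, Wutou and Sanfen differed by 0.31 in longissimus muscle (adjusted p = 0.968) and by -3.15 (SE 0.90) in gluteal muscle (adjusted p = 0.963), both by limma. The interaction, which asks whether the muscle difference itself differs between the strains, was -3.46 (SE 1.27, adjusted p = 0.9998 by limma).

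None of these differences was called with all 12 libraries, and the result depended on 1 library. Without Sanfen gluteal replicate 1, the low library of a group that is otherwise high, the Wutou muscle difference of KCNJ11 stayed at -4.82 with a smaller SE of 0.41 and passed the limma test (adjusted p = 0.00115). The difference averaged over strains became -2.40 (adjusted p = 0.0300), the strain difference in gluteal muscle -4.53 (adjusted p = 0.00421) and the interaction -4.84 (adjusted p = 0.0217), all by limma. The Sanfen muscle difference moved from -1.36 to 0.02 (adjusted p = 1). Sanfen gluteal replicate 1 is not part of the Wutou comparison, but all groups share 1 estimate of the spread. It stands out by its own KCNJ11 value. The p-values without it therefore show how the tests depend on it and are no support for a difference. Each library was left out in turn, and the values before these rest on all 12. With only the 6 Wutou libraries in the fit, the Wutou muscle difference had an adjusted p of 0.0586 by limma. Over all alternative settings its adjusted p ran from 0.00115 to 1 and its size from -6.23 to -4.26, while the adjusted p of the difference averaged over strains ran from 0.0300 to 0.773.

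ABCC9 (MSTRG.18332), which encodes the sulfonylurea receptor SUR2 that surrounds the KATP pore, had no such separated levels. In Sanfen its levels were 9.51, 12.1 and 16.2 FPKM in the longissimus (12.6 ± 3.36, mean ± SD, n = 3) and 14.2, 18.3 and 16.7 in the gluteal muscle (16.4 ± 2.10). In Wutou they were 13.1, 11.98 and 13.9 in the longissimus (12.999 ± 0.985) and 9.91, 11.9 and 20.96 in the gluteal muscle (14.3 ± 5.88). The groups of each comparison overlapped, and the highest and nearly the lowest value both came from Wutou gluteal muscle. The log2 difference between muscles was 0.06 in Wutou (95% confidence interval -0.52 to 0.64, adjusted p = 0.994 by limma) and 0.38 in Sanfen (-0.20 to 0.96, adjusted p = 1). The ratio of KCNJ11 to ABCC9 was 2.37 to 5.49 in the 8 libraries where KCNJ11 was high and 0 to 0.273 in the other 4.

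The alternative KATP subunits were low in all 12 libraries. KCNJ8, the Kir6.1 pore found mainly in vascular muscle and the RefSeq neighbour of ABCC9, ranged from 0.729 to 1.95 FPKM. ABCC8, the receptor SUR1 of pancreatic beta cells, ranged from 0.0349 to 0.355 and did not reach the level needed for testing. In the Wutou gluteal libraries, where KCNJ11 was listed at 2.70, 0 and 1.75, KCNJ8 stood at 1.49, 1.95 and 1.08, and in Sanfen gluteal replicate 1 it stood at 1.63 against 1.83 for KCNJ11. Of these 4 libraries, KCNJ8 was above KCNJ11 only in the one where KCNJ11 was listed at 0, and below it in the rest. In the other 8 libraries it was far below KCNJ11. The genes beside KCNJ11 in the RefSeq order were low too: NCR3LG1 ranged from 0.437 to 1.64 and USH1C from 0.810 to 2.03. At such low values levels as far apart as those of KCNJ11 cannot appear. These neighbours, KCNJ8 and ABCC8 therefore cannot show whether its split is shared. Since ABCC9 and KCNJ8 are also expressed in vessel walls, the sum of 10 smooth muscle and pericyte markers is given beside them. In Sanfen it was 67.8 to 103 FPKM for the longissimus and 73.7 to 152 for the gluteal libraries. In Wutou it was 79.2 to 96.8 and 77.6 to 126, and its part in the ABCC9 and KCNJ8 values was not tested.

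**Figure D2:**
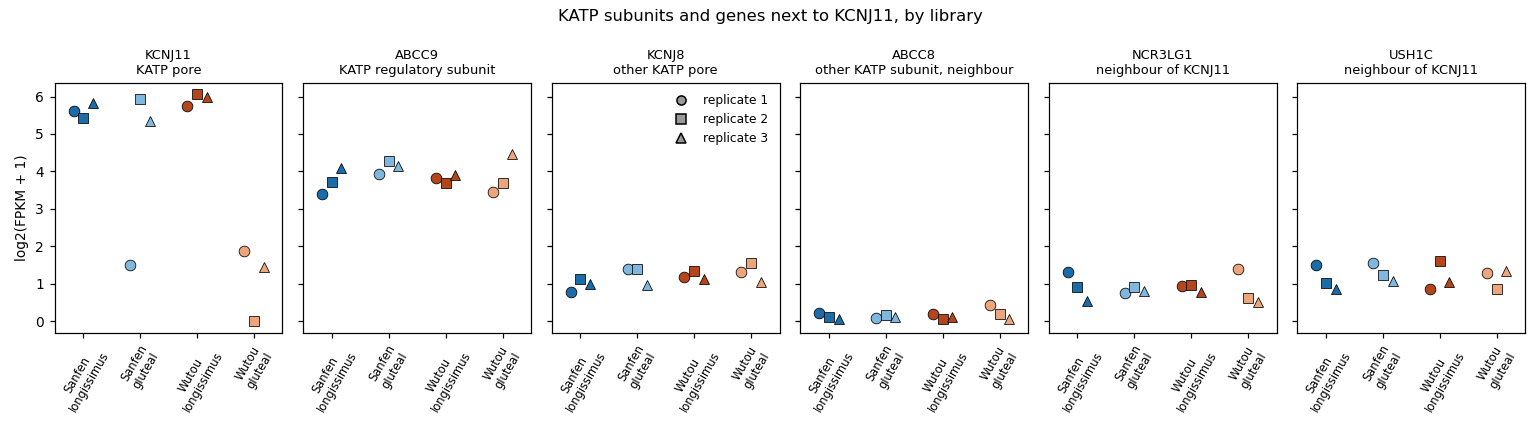
Levels on the log2(FPKM + 1) scale (vertical axis, shared) of the 4 KATP subunit genes and of the other RefSeq neighbours of KCNJ11, by group (horizontal axis), with 1 symbol per library. The separated levels are seen in the KCNJ11 panel, where 4 gluteal libraries lie at or below 2.70 FPKM, and not in the ABCC9 panel. The other genes are too low to show levels so far apart.

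A locus was counted as listed in 2 levels when its largest gap between sorted log2(FPKM + 1) values was at least 2, made up at least 50% of its whole range and left 3 or more libraries on each side. KCNJ11 is 1 of 39 such loci, which are 0.314% of those tested. It was the only one of them to split the libraries as it does. With the gap lowered to 1, 128 loci qualified and KCNJ11 was still alone in its split or the mirror of it. Loci at low FPKM cannot reach such gaps on this scale, so a like split among them is not counted here. Among the 28 of these 39 loci with a single gene symbol were the stress and growth genes JUN, JUNB, JUND and IRS1, the linker histone gene H1-2 and the ubiquitin ligase gene FBXO32, named after their values were seen. JUNB, for example, was listed at 0 in 6 libraries and at 7.64 to 18.3 FPKM among the other ones. A single transcript was listed for 35 of the 39 loci (89.7%), KCNJ11 among them, against 46.7% of all tested loci. The 39 loci were picked by these same values, and the part of transcript number in the 2 levels was not tested.

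The 4 libraries in which KCNJ11 was low were compared with the rest on general measures. Sanfen gluteal replicate 1 and the Wutou gluteal libraries had 26, 21, 28 and 18 of the 39 loci on their low side, and the other libraries 13 to 22, so 2 of the 4 were low more often than any other library. Their numbers of loci at an FPKM of 1 or more were 11412, 9993, 10071 and 9865, within the range of 9210 to 11464 over all libraries. Loci listed at 0 there, despite a median of at least 10 FPKM in the other libraries, numbered 3, 2, 5 and 4, against 1 to 4 in the rest. Their slow fibre sums were both the highest and the lowest of the study, at 7887 FPKM in Sanfen gluteal replicate 1 and 2559 to 2790 in the Wutou gluteal libraries. Sanfen longissimus replicate 1 and Wutou longissimus replicate 1, where KCNJ11 was high, had like sums of 2623 and 2757, and the part of fibre type in the KCNJ11 values was not tested.

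At 10 tested loci (0.0806%), KCNJ11 included, these 4 libraries lay below the other 8. GOT2, a mitochondrial aspartate aminotransferase, stood at 72.7 to 101.7 FPKM in the 4 libraries and 101.85 to 220 in the rest. PIP4K2B, a phosphoinositide kinase, and SNU13, an RNA-binding protein of the spliceosome, were also among these loci, and they ran closest to KCNJ11 in rank order over the 12 libraries (Spearman's rho 0.902 and 0.853). TMEM62 was next at 0.839. ZNF696 and LOC106823469, named after their values were seen, were among the 10 loci as well. ZNF696 read 0.0231 to 0.0475 FPKM in the 4 libraries and 0.422 to 1.68 in the rest. LOC106823469 was listed at 0 in the 4 libraries and read 0.182 to 1.40 in the rest. The 4 libraries lay above the other 8 at 47 loci (0.379%), and the KCNJ2 locus was 1 of these.

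KCNJ2 encodes Kir2.1, the inward rectifier that sets the resting potential. Its symbol was carried by 3 loci, all low. The one used here for its highest mean (MSTRG.3632) holds a single assembled transcript and no reference transcript. The locus with the reference transcripts (MSTRG.3630) reached only 0.0724 to 0.723 FPKM, and the third (MSTRG.3631) 0 to 1.26, so what follows is the level of an assembled fragment named for KCNJ2. In the longissimus of Sanfen that fragment read 1.51, 0.502 and 0.555 FPKM (0.856 ± 0.567), and in the gluteal muscle it was listed at 2.33, 1.32 and 0. In Wutou its levels were 0.697, 1.31 and 0.658 in the longissimus (0.889 ± 0.368) and 1.63, 2.78 and 2.68 in the gluteal muscle (2.36 ± 0.639). The Wutou groups did not overlap, with gluteal muscle the higher, while the Sanfen gluteal values spanned those of longissimus.

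The log2 difference of KCNJ2 between Wutou gluteal and longissimus muscle was 0.83 (SE 0.38, 95% confidence interval 0.01 to 1.65). It did not pass the limma test (adjusted p = 0.870). In Sanfen it was 0.13 (adjusted p = 1), and in gluteal muscle the strains differed by 0.75 (SE 0.38, adjusted p = 0.963 by limma). With a pseudocount of 0.1 the Sanfen muscle difference was -0.29 (SE 0.93), so its sign depends on that setting. Over the 12 libraries the rank correlation of KCNJ2 with KCNJ11 was -0.57, the most negative among the 21 pairs of channel genes. The libraries share strain and muscle groups, so this is a description.

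CLCN1 (MSTRG.1199), the ClC-1 channel that carries most of the resting membrane conductance of muscle, was low throughout. The Sanfen libraries read 2.26, 3.41 and 2.43 FPKM for the longissimus (2.70 ± 0.619) and 2.82, 4.83 and 4.25 for the gluteal muscle (3.97 ± 1.03). The Wutou libraries read 2.63, 4.59 and 2.60 for the longissimus (3.27 ± 1.14) and 2.08, 4.25 and 6.39 for the gluteal muscle (4.24 ± 2.16). The gluteal means were above the longissimus means in both strains, but the groups overlapped and Wutou gluteal muscle held both the lowest and the highest library. The log2 difference between muscles averaged over strains was 0.33 (95% confidence interval -0.15 to 0.80, adjusted p = 0.808 by limma). The interval on the fold scale runs from 0.904 to 1.74.

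SCN4A (MSTRG.7114) encodes Nav1.4, the sodium channel that carries the muscle action potential. The Sanfen values were 10.99, 21.3 and 11.1 FPKM in the longissimus (14.5 ± 5.93) and 12.04, 13.1 and 19.7 in the gluteal muscle (14.96 ± 4.16). The Wutou values were 11.8, 17.8 and 12.4 in the longissimus (13.97 ± 3.30) and 18.5, 15.4 and 15.8 in the gluteal muscle (16.5 ± 1.67). Sanfen longissimus replicate 2, Sanfen gluteal replicate 3 and Wutou longissimus replicate 2 each stood well above their partners, and the groups overlapped. The log2 difference between strains averaged over muscles was 0.08 (95% confidence interval -0.41 to 0.56, adjusted p = 0.979 by limma), and that between muscles averaged over strains was 0.16 (-0.27 to 0.59, adjusted p = 0.913).

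CACNA1S (MSTRG.16977), the Cav1.1 subunit that senses voltage in the transverse tubule, was the steadiest of the 7: its SD over libraries was at the 49.1st percentile of tested loci. For the longissimus of Sanfen it read 51.3, 97.9 and 51.6 FPKM (66.96 ± 26.8), and for the gluteal muscle 53.3, 60.9 and 56.8 (56.98 ± 3.84). For the longissimus of Wutou it read 59.3, 71.5 and 68.8 (66.5 ± 6.40), and for the gluteal muscle 57.5, 47.7 and 58.0 (54.4 ± 5.78). The high value belongs to Sanfen longissimus replicate 2, which was also the highest library for SCN4A and the lowest for the fast fibre list, and the part of fibre type in these values was not tested. In Wutou each gluteal library lay below each longissimus library, by a narrow gap of 58.0 against 59.3. The log2 difference there was -0.29 (95% confidence interval -0.84 to 0.26, adjusted p = 0.923 by limma), and in Sanfen it was -0.16 (-0.71 to 0.39, adjusted p = 1).

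CACNB1, the intracellular beta subunit that brings CACNA1S to the membrane, is counted in a locus that also carries a second, uncharacterised gene (MSTRG.18890), so its level may include that gene. Sanfen libraries stood at 6.29, 8.996 and 7.58 FPKM for the longissimus (7.62 ± 1.35) and 8.83, 11.6 and 8.63 for the gluteal muscle (9.70 ± 1.68). Wutou libraries stood at 6.79, 10.7 and 7.37 for the longissimus (8.27 ± 2.09) and 5.10, 10.1 and 8.58 for the gluteal muscle (7.92 ± 2.55). Replicate 2 was the highest library in each of the 4 groups. The log2 difference between muscles was 0.31 in Sanfen (95% confidence interval -0.23 to 0.86, adjusted p = 1 by limma) and -0.08 in Wutou (-0.62 to 0.47, adjusted p = 0.994). Its pore partner CACNA1S outnumbered it throughout, with a ratio of CACNB1 to CACNA1S between 0.0886 and 0.211 in the 12 libraries.

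The balance of the calcium channel pore to the sodium channel was examined after the values were seen. In longissimus libraries the ratio of CACNA1S to SCN4A was 4.67, 4.59 and 4.63 for Sanfen and 5.04, 4.03 and 5.55 for Wutou. In gluteal libraries it was 4.42, 4.64 and 2.88 for Sanfen and 3.12, 3.10 and 3.67 for Wutou. All 3 Wutou gluteal libraries and 1 Sanfen gluteal library thus lay below every longissimus library, whose lowest ratio was 4.03. The Sanfen longissimus libraries differed little in this ratio (4.63 ± 0.0392, n = 3), although replicate 2 had the highest level of both genes in the study. No test was made of a ratio chosen in this way.

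**Figure D3:**
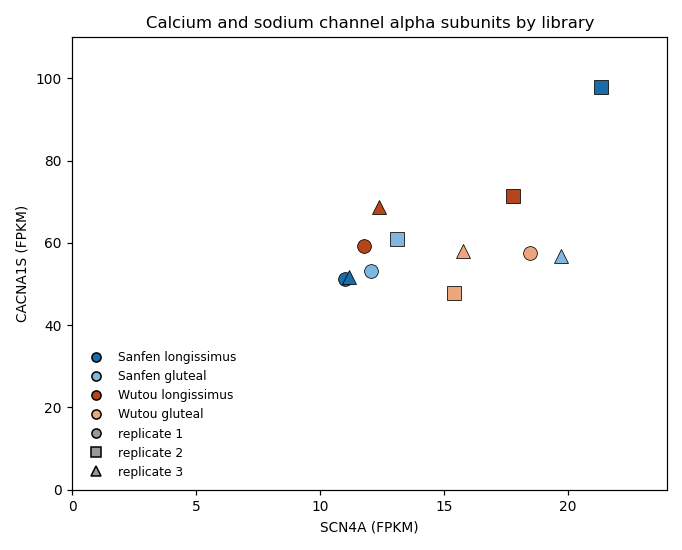
CACNA1S (vertical axis) against SCN4A (horizontal axis), both in FPKM on linear axes from 0, with 1 symbol per library, colour for the group and shape for the replicate number. Sanfen longissimus replicate 2 lies apart at 97.9 and 21.3 FPKM, and the Wutou gluteal libraries lie below the Wutou longissimus ones.

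Across the 7 comparisons none of the 7 channel genes passed the adjusted threshold of 0.05, and few loci of any kind did. For gluteal against longissimus muscle in Sanfen, limma called 0.0242% of all loci and 0 of 7 members, none of which had an unadjusted p under 0.05 (3.57% of all loci). In Wutou it called 0% of loci and 0 of 7 members. Here 2 members, KCNJ11 and KCNJ2, had an unadjusted p under 0.05 (5.68% of all loci), and KCNJ11, KCNJ2 and CACNA1S had groups that did not overlap (12.9% of all loci). In Sanfen, groups did not overlap for 0 of 7 members and for 7.54% of all loci. For the muscle difference averaged over strains, 0 of 7 members and 0% of loci were called, and 1 member, KCNJ11, had an unadjusted p under 0.05 (6.56% of all loci).

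Between Wutou and Sanfen in longissimus muscle, limma called 0 of 7 members and 0.0161% of all loci, with 0 members and 5.52% of loci at an unadjusted p under 0.05. The groups overlapped for all 7 members there, while they did not for 11.8% of all loci. In gluteal muscle it called 0 of 7 members and 0.00806% of loci. Only KCNJ11 had an unadjusted p under 0.05 (4.86% of loci), and the groups of all 7 members overlapped (10.9% of loci did not). Averaged over muscles, 0 members and 0% of loci were called, with 0 members and 5.97% of loci at an unadjusted p under 0.05. For the interaction, 0 members and 0.00806% of loci were called, and KCNJ11 was the 1 member with an unadjusted p under 0.05 (2.6% of loci).

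**Figure D4:**
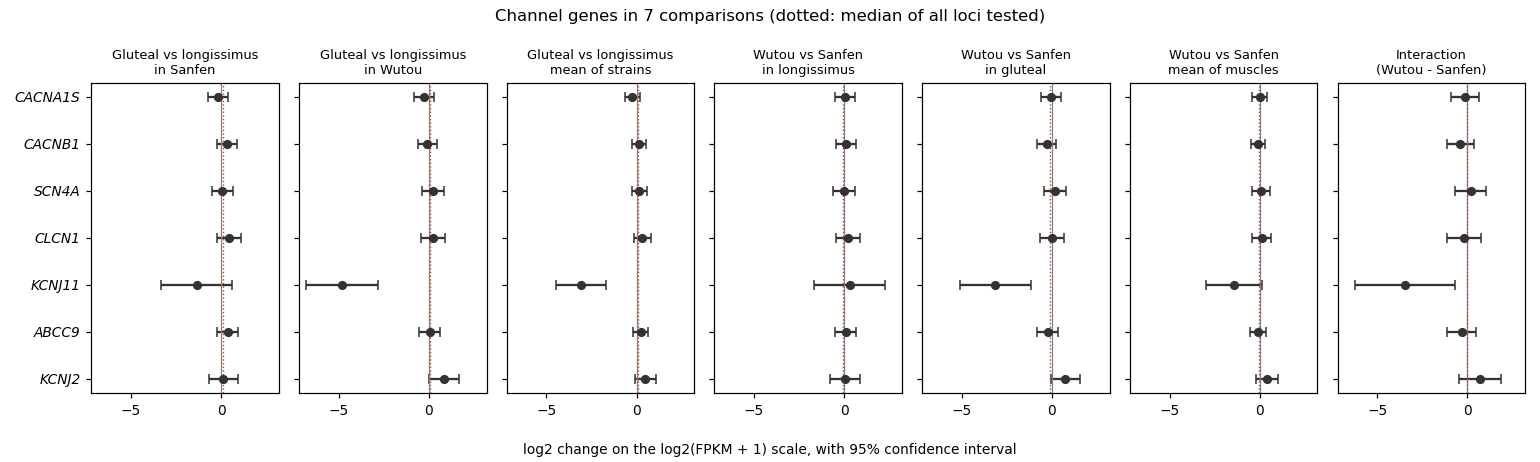
Log2 differences on the log2(FPKM + 1) scale (horizontal axes) of the 7 channel genes (vertical axis) in the 7 comparisons, with 95% confidence intervals from limma that are not adjusted for the number of loci, and a dotted line at the median of all loci. KCNJ11 stands at -4.82 between Wutou muscles and has by far the widest intervals, while no other gene lies more than 0.83 from 0.

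Gluteal muscle was the higher for 5 of 7 members in Sanfen (67.6% of all loci), 4 of 7 in Wutou (58.6%) and 5 of 7 averaged over strains (65.9%). Wutou was the higher for 6 of 7 members in longissimus (40.7% of loci), 3 of 7 in gluteal muscle (34.2%) and 3 of 7 averaged over muscles (35.3%), and the interaction was above 0 for 2 of 7 (45.4%). With 7 genes and no calls, nothing is read from these shares. The median log2 difference of the 7 was 0.13 between muscles in Sanfen (0.08 over all tested loci) and 0.06 in Wutou (0.05 over all loci). Between strains it was 0.07 in longissimus (-0.06 over all loci) and -0.07 in gluteal muscle (-0.09). The closest pair in rank order over the 12 libraries was CLCN1 and CACNB1 (Spearman's rho 0.80), with CACNA1S and KCNJ11 at 0.55, ABCC9 and CLCN1 at 0.54, and CACNA1S and SCN4A at 0.46. The 2 KATP subunits KCNJ11 and ABCC9 had a rho of 0.02. These libraries fall into 4 groups, so the correlations only describe them.

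**Figure D5:**
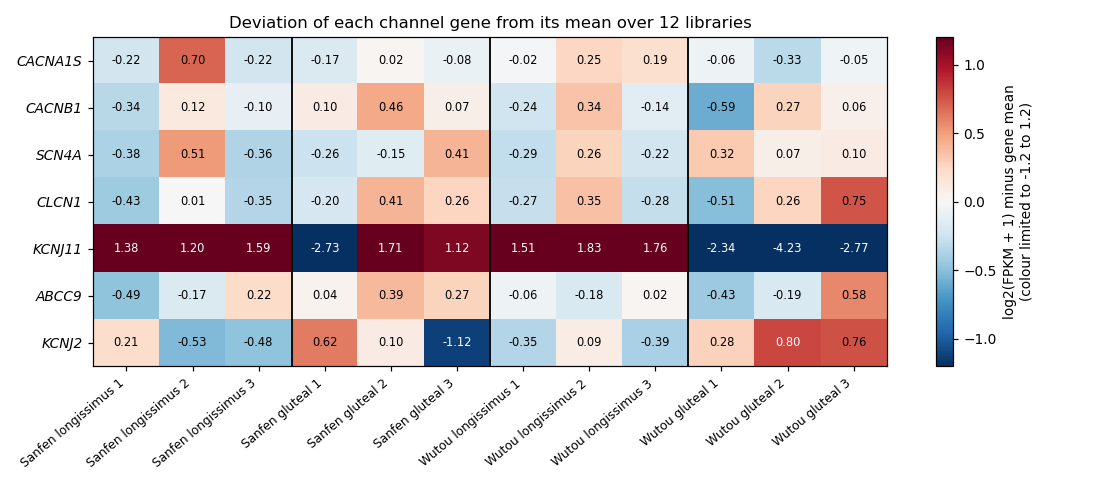
Deviation of each channel gene (rows) from its own mean over the 12 libraries (columns, ordered by group), in log2(FPKM + 1), printed in each cell and shown as colour from blue (below) to red (above), with the colour limited to 1.2 either way. Sanfen gluteal replicate 1 and the Wutou gluteal libraries are low for KCNJ11 (-2.34 to -4.23) and high for KCNJ2 (0.28 to 0.80), with no such pattern in the other genes.

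Loci with 1 symbol that ran closest to each remaining member, by Spearman's rho over the 12 libraries among 9783 candidates (9784 for CACNB1), were these. CACNA1S ran closest to TAMM41, a mitochondrial lipid synthesis enzyme (0.965), SCN4A to ATXN1 (0.965), and CACNB1 to ZBTB46 (0.951). ABCC9 ran closest to CCDC186 (0.944), CLCN1 to WDR77 (0.937) and KCNJ2 to ASUN (0.902). Each member had some locus at 0.902 or above. Each such value is the highest of 9783 or 9784 over only 12 libraries, so no link between genes is read from it.

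The wider set of excitability genes held 64 genes in 7 lists, of which 62 were found and 44 could be tested. KCNJ4 and BSND were not analysed here. In all 7 comparisons limma called 0 of the 44, and at most 3 had an unadjusted p under 0.05 in any one (6.82%, for the strains averaged over muscles, against 5.97% of all loci). Their median log2 difference between muscles was 0.09 in Sanfen (31 genes above 0 and 13 below) and -0.01 in Wutou (21 and 23). Between strains it was 0.11 in longissimus (26 and 18) and -0.09 in gluteal muscle (14 and 30), where the median over all loci was -0.06 and -0.09.

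Among partners of the sodium channel, the 6 testable genes of 9 all lay higher in Sanfen gluteal than in Sanfen longissimus muscle (median log2 difference 0.30, against 0.08 over all loci), and none was called. In Wutou 2 of the 6 lay higher. Of all loci, 67.6% lay higher in gluteal muscle in Sanfen and 58.6% in Wutou. FGF13, which binds sodium channels, differed by 0.33 between Sanfen muscles (adjusted p = 1 by limma).

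All 11 genes of tubule structure and calcium coupling could be tested. REEP5, which shapes membranes of the reticulum, had the smallest unadjusted p of the wider set. In Wutou it read 3.04, 7.54 and 3.14 FPKM for the longissimus and 10.6, 9.63 and 11.3 for the gluteal muscle. Its groups did not overlap, nor did those of 12.9% of all loci. The log2 difference of REEP5 was 1.13 (SE 0.28, adjusted p = 0.870 by limma). JSRP1, a junctional protein that binds CACNA1S, had a strain difference of 0.70 (SE 0.25, adjusted p = 0.793), and BIN1, which forms the tubules, a difference of -0.39 between Wutou muscles (adjusted p = 0.870). The locus of STAC3, a gene needed for CACNA1S to work, also carries R3HDM2 and ranged from 19.3 to 27.2 FPKM, and CACNG1, the gamma subunit, ranged from 10.7 to 80.2.

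Of the sodium-potassium pump, which restores the ion gradients, 6 of 7 genes could be tested. All 6 lay above 0 for the muscle difference averaged over strains, as did 65.9% of all loci. Their median of 0.04 was below the 0.07 of all loci. The beta subunit ATP1B1 had a difference of 0.50 (SE 0.18, adjusted p = 0.745 by limma), with longissimus means of 6.74 ± 1.51 FPKM in Sanfen and 4.96 ± 0.965 in Wutou, and gluteal means of 10.5 ± 3.89 and 7.23 ± 1.80.

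At the neuromuscular junction, 7 of 11 genes could be tested. CHRNA1, the alpha subunit of the acetylcholine receptor, read 1.97, 7.51 and 1.42 FPKM in the longissimus of Sanfen and 4.75, 2.76 and 2.78 in its gluteal muscle. In Wutou it read 1.33, 1.81 and 1.25 in the longissimus and 1.298, 1.42 and 1.33 in the gluteal muscle. Each Sanfen gluteal library was above each Wutou library. Between strains in gluteal muscle, groups did not overlap for 10.9% of all loci. The strain difference of CHRNA1 averaged over muscles was -0.79 (SE 0.30, adjusted p = 0.793 by limma). The 2 highest libraries, Sanfen longissimus replicate 2 and Sanfen gluteal replicate 1, are those with low fast fibre sums. In the same comparison 10 of 11 slow fibre markers lay below 0 (median -0.53), with sums of 2623 to 7887 FPKM in Sanfen and 2559 to 4756 in Wutou. So did all 3 testable of 7 Schwann cell markers (median -0.65), with sums of 7.999 to 17.6 and 4.403 to 8.67. Over all loci the median was -0.07 and 35.3% lay above 0. The part of these markers in the CHRNA1 values was not tested. The partner subunit CHRNB1 had a difference of 0.38 (adjusted p = 0.844), and the receptor-clustering gene DOK7 one of 0.25 (adjusted p = 0.860).

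Potassium and chloride channels outside the 7 members showed no call either. Of the KATP and inward rectifier list 2 of 6 genes could be tested, of other potassium channels 6 of 12 and of chloride channels 6 of 8. KCNA7, a muscle voltage-gated potassium channel, had a log2 difference of 0.32 between Wutou muscles (adjusted p = 0.870 by limma), KCNC4 one of 0.48 between strains in gluteal muscle (adjusted p = 0.963), and KCNMB1 one of 0.33 between strains in longissimus (adjusted p = 0.860). The intracellular chloride exchangers CLCN3, CLCN4 and CLCN7 had medians of 3.12, 3.10 and 1.95 FPKM, near the level of CLCN1, and differences between muscles of 0.12 to 0.23 where they were largest relative to their error (adjusted p = 0.774 to 1). KCNJ12, the Kir2.2 rectifier and relative of KCNJ2, ranged from 0.5004 to 24.1 FPKM and varied within every group, with 14.96, 10.1 and 0.730 in the longissimus of Sanfen alone.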

How the data were processed

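The authors deposited FPKM per locus for 12 libraries, per the file headers. Per the submitters' processing notes, cutadapt, Bowtie2 and TopHat2 were used, with no version given. The tool that computed FPKM and the genome build are not given in the sources used here, so no coordinates or sequences are printed. Locus names that begin with MSTRG come from transcript assembly, with or without reference transcripts in the locus. RefSeq (EquAss-T2T_v2) served only to match symbols, 7 of 7 members, and to read neighbours.

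Values were taken as log2(FPKM + 1) for the 12408 of 27084 loci that reached an FPKM of 1 in 3 or more libraries. One limma 3.58.1 model (R 4.3.3) held 4 group means over all 12 libraries, with 8 residual degrees of freedom, a trend in the prior variance and Benjamini-Hochberg adjustment over all 12408 loci. The strain comparison averaged over muscles used a random block for libraries of the same strain and number (statmod 1.5.0, consensus correlation 0.188). A pseudocount of 1 draws low values together and so can understate differences of genes at low FPKM. The sign of the Sanfen muscle difference of KCNJ2 depends on it. An FPKM of exactly 0 can be a failed estimate, so it is written as listed at 0.

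Whether equal replicate numbers pair the muscles was checked by correlating the libraries' deviations from their group means. In Sanfen these correlations were 0.246, 0.110 and 0.158, each over the limit of 0.1, and in Wutou 0.182, 0.165 and 0.0711. Libraries of unequal number had correlations of -0.149 to -0.000829 in Sanfen and -0.169 to 0.0126 in Wutou, below every value of equal number. Deviations from a group mean cancel out within the group, so positive values at equal numbers force the others down. The values at unequal numbers are therefore no separate support for pairs. By the limit of 0.1 only the Sanfen numbers are taken as pairs, from the values and not from the labels. In the main fit the muscle comparisons and the interaction used no pairing. The random block used the numbers of both strains.

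The members and lists were chosen with earlier results of these data known. Named genes are the 7 members, the other KATP subunits, the 3 genes of each wider list with the smallest p over the 7 comparisons, and for each member the 3 loci closest by Spearman's rho, of which the text gives 1 to 3. Some genes that this rule names are not reported here. Others are said to be named after their values were seen, which also holds for STAC3, CACNG1, the neighbours of KCNJ11 and the ratios. Marker lists covered skeletal muscle, fast and slow fibres, smooth muscle, endothelium, fibroblasts, Schwann cells, fat and heart. On simulated data with 12408 loci the model recovered 45% of loci with a log2 difference of 1 and 92% of those with 2 in the Sanfen muscle comparison, and 19% and 73% in the interaction. That simulation used normal noise and planted many changed loci at once. With fewer changed loci the adjusted threshold is stricter, so these shares do not give the power of the tests reported here. Each result was also computed with a pseudocount of 0.1, without the filter, with the filter raised to an FPKM of 5, after median-of-ratios or quantile scaling, with or without the replicate block, from the 6 libraries of a comparison alone, and without each library. Tables and plots used matplotlib 3.10.9, pandas 2.3.3, numpy 2.4.6 and scipy 1.17.1 under Python 3.11.15.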

Additional observations from a re-analysis of the deposited data

How the results depend on the processing

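Of 896 values of single members under other settings, 892 were uncalled both ways and 4 were called under the alternative alone, each KCNJ11 without Sanfen gluteal replicate 1. Uncalled differences changed sign 56 times, 55 of them smaller than their error. The other was KCNJ11 between Sanfen muscles, which ran from -2.19 to 0.0238 without each library, the latter without Sanfen gluteal replicate 1. The number of called members was 0 under each setting that kept all libraries. Leaving out each library gave 0 to 1 called members between Wutou muscles, between muscles averaged over strains, between strains in gluteal muscle and for the interaction, and 0 in the other comparisons.

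Called loci of any kind numbered 3 between Sanfen muscles, and became 5 with a pseudocount of 0.1, 5 without a filter, 1 with a filter at an FPKM of 5 and 0 to 5 without each library. Between Wutou muscles the count of 0 became 2 with median-of-ratios scaling, 1 with only the 6 libraries compared and 0 to 2 without each library. Between muscles averaged over strains it was 0, 1 without a filter and 0 to 4 without each library. Between strains in longissimus it was 2, and became 6 with the smaller pseudocount, 4 without a filter, 0 at an FPKM of 5, 7 with 6 libraries and 0 to 6 without each library. Between strains in gluteal muscle it was 1, and became 0 with the smaller pseudocount, at an FPKM of 5, with median-of-ratios and with quantile scaling, 2 with 6 libraries and 0 to 3 without each library. Between strains averaged over muscles it was 0, 1 without a filter and 0 to 1 without each library. For the interaction it was 1, and became 2 without a filter, 0 at an FPKM of 5, 2 with either scaling and 1 to 5 without each library. Fewer loci are tested at an FPKM of 5, KCNJ2 and CLCN1 not among them, and otherwise the cause was not tested. Loci in 2 levels numbered 39, 128 with a gap of 1 and 13 with a gap of 3, KCNJ11 among them each time.

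With strain and replicate number as a fixed replicate block, which takes the Wutou numbers as pairs too, called loci between Sanfen muscles went from 3 to 1, and no other call changed. The block of strain and replicate number in the strain comparisons of single muscles was added after seeing the data, since a fixed block takes up the strain effect. Unknown read depth, 3 libraries a group and an unknown link of libraries to donkeys limit all values.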

Other observations

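Genes of the wider set with very wide spread were named after their values were seen. CAV3, the muscle caveolin, read 26.6, 0.730 and 3.68 FPKM in the longissimus of Sanfen and 8.69, 4.33 and 0.105 in its gluteal muscle. In Wutou CAV3 read 6.26, 8.01 and 6.96 in the longissimus and 2.90, 20.3 and 7.20 in the gluteal muscle. SCN4B, a beta subunit of sodium channels, read 11.1, 1.35 and 1.47 in the longissimus of Sanfen and 8.75, 1.54 and 9.44 in its gluteal muscle. In Wutou SCN4B read 1.60, 8.91 and 14.8 in the longissimus and 1.80, 1.35 and 24.3 in the gluteal muscle. High and low libraries of both genes occurred in the same groups, and neither gene followed the split of KCNJ11.

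Markers of further cell types were present at low and varying sums. Fibroblast genes summed to 97.9 to 217 FPKM per library, fat genes to 19.2 to 54.7 and Schwann cell genes to 4.403 to 17.6. The heart list summed to 869 to 4821, which its MYH6 locus carried, while MYL7, an atrial light chain, was listed at 0.0229 or less. MYH6 is nearly identical to MYH7, so that locus is uncertain.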
